A study of Mus musculus with 8 samples.

Results

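The loci of 6 genes linked to intestinal stem cells and Wnt signalling, Lgr5, Ascl2, Axin2, Sox9, Myc and Cd44, were examined for H3K27ac, the acetylation of histone H3 at lysine 27 that marks active promoters and enhancers. A window was set around each gene by its position in the mouse build mm9, and each H3K27ac peak that overlapped a window by at least 1 bp was taken. The windows were chr10:114860000-115050000 for Lgr5, chr7:150135000-150175000 for Ascl2, chr11:108760000-108835000 for Axin2, chr11:112620000-112670000 for Sox9, chr15:61795000-61845000 for Myc and chr2:102625000-102770000 for Cd44. They held 39 of the 117035 peaks in the 4 deposited lists: 7 (fed 1) and 3 (fed 4) against 15 (fasted 2) and 14 (fasted 5), named by feeding state and by the replicate numbers in the labels. The names of the windows could not be checked against marker genes, because the lists hold peaks and no expression values.

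The material was whole small intestinal crypts from mice of both sexes, 6 to 12 weeks old. Fed mice had free access to food and water for 24 h, and fasted mice had water and no food for 24 h. A replicate was the combined crypts of 4 animals, and each feeding state had 2 H3K27ac libraries, with 4 input libraries that were not analysed here. Both feeding states shared the isolation in solutions with 100 nM TSA, which blocks the removal of histone acetylation, and medium with the inhibitors SB431542 and Y-27632. The protocols name a pair of strains, Lgr5EGFP-IRES-CreERT2/+ and C57BL/6J. In the first, one copy of Lgr5 carries a reporter and recombinase cassette. Which strain gave these pools is not stated in the sources used here, which bears on the Lgr5 window in particular.

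Wnt ligands act on crypt base cells by stabilising beta-catenin, which binds TCF/LEF factors on DNA and switches on target genes. R-spondins amplify the signal through Lgr5, a receptor that marks crypt base columnar stem cells. Ascl2 is a transcription factor required in these stem cells, Axin2 is a Wnt target that feeds back to degrade beta-catenin, Sox9 is a transcription factor of crypt base and Paneth cells, Myc drives growth and proliferation of crypt progenitors, and Cd44 is a hyaluronan receptor and Wnt target of crypt cells.

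RefSeq promoter sequences run from 250 bases before to 50 bases after a gene start. Sequences were at hand for only 3 of the 6 genes, Ascl2 (peak in a single library), Cd44 (no peak in fed 1) and Axin2 (peaks in every library). They are from build GRCm38.p6, whose positions cannot be set beside the mm9 peaks: chr7:142969215-142969514 on the minus strand for Ascl2, chr11:108920099-108920398 on the plus strand for Axin2 and chr2:102901616-102901915 on the minus strand for Cd44. Each reads 5′ to 3′, and capitals mark CG dinucleotides.
Ascl2: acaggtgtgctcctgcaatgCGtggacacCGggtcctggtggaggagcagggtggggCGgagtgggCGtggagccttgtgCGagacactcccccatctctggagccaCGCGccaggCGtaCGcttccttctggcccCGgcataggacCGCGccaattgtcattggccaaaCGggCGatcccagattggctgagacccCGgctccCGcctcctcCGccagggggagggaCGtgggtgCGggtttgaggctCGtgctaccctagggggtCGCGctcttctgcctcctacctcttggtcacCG
Axin2: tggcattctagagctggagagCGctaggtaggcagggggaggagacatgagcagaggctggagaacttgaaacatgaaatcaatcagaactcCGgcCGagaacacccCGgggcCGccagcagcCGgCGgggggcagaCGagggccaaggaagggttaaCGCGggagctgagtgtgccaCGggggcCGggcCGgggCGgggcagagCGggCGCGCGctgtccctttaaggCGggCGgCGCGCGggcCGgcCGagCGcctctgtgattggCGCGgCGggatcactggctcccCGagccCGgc
Cd44: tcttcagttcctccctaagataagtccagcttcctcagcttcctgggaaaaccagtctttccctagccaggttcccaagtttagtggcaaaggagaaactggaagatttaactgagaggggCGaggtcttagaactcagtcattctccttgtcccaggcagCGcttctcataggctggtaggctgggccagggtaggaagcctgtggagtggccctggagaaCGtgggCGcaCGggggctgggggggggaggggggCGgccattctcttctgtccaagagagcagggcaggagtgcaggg

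The Axin2 promoter held 31 CG dinucleotides and 70% G and C, more CG than 89.4% of the 32851 promoters in the table. The Ascl2 promoter held 23 (67% G and C, more CG than 78.5% of promoters), and the Cd44 promoter held 6 (58% G and C, more CG than 43.6%), with a median of 7 over all promoters. Both strands were searched for CTTTGAT and CTTTGAA, forms of the TCF/LEF core, for CAGCTG, an E-box that Ascl2-type factors can bind, and for TATAAA, the TATA box. None of these letters was found in the 3 promoters. Over all promoters the shares were 3.73% for CTTTGAT, 5.14% for CTTTGAA, 16.3% for CAGCTG and 13.6% for TATAAA. In a list of 24 Wnt target and stem cell genes, 16 had promoters in the table, 23 in all, and CTTTGAT was found in 2 of these (8.70%), at Sp5 and Tnfrsf19. CAGCTG was found in 5 (21.7%), TATAAA in 2 (8.70%) and CTTTGAA in 0. The windows of these promoters are short, so the search says nothing of sites farther away.

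The lists differed in length. They held 15504 to 27640 peaks in the fed and 35917 to 37974 in the fasted libraries, covering 21.9 to 48.8 Mb and 99.2 to 109.1 Mb of the genome. Sequencing depth is unknown, and feeding state and list length cannot be told apart in these lists. Each peak carries a score from the authors, and its percentile is the percentage of its library's peaks that score no higher. Every score was at least 50, so a locus without a peak may hold acetylation below that level. In whole crypts, acetylation in fewer cells and less acetylation per cell cannot be told apart either.

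**Figure D1:**
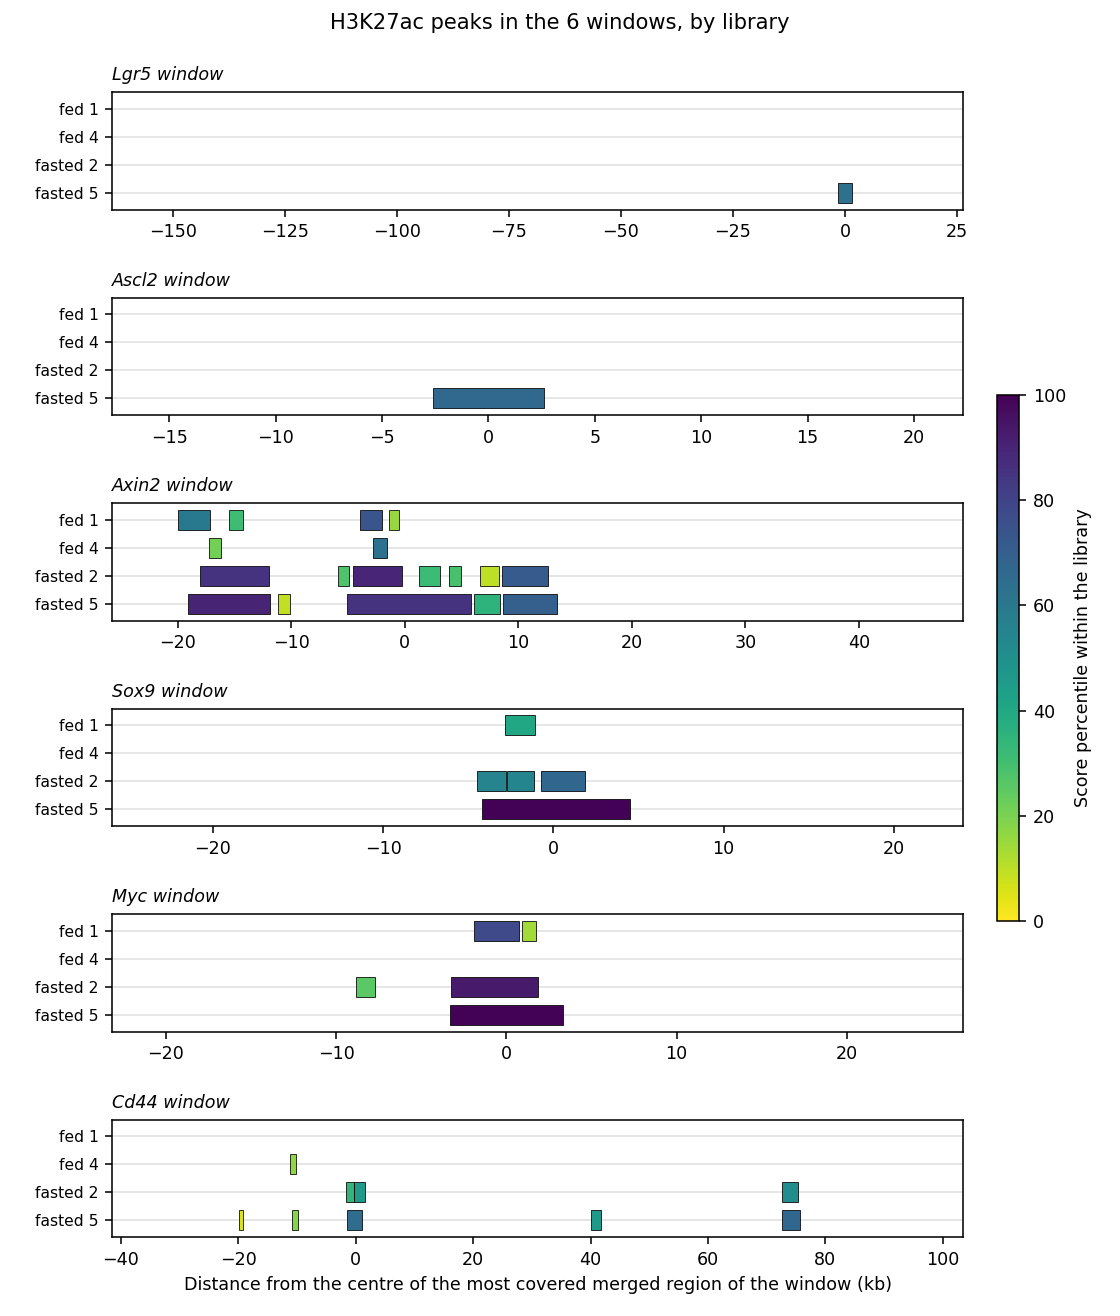
Peaks in each window (bars) by library (rows), with the distance from the centre of the window's most covered merged region in kb on the x axis of each panel and the score percentile within the library as colour. Only fasted 5 has a bar at Lgr5 and Ascl2, Axin2 has bars in all 4 libraries, and fed 4 has none at Sox9 or Myc.

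Lgr5 and Ascl2, the genes most closely tied to the stem cell itself, had the fewest peaks. Within the Lgr5 window, fed 1, fed 4 and fasted 2 had 0 peaks and fasted 5 had 1, at chr10:115022094-115025129, which was 3036 bp wide with a score of 486.02 (percentile 62.2). The Ascl2 window likewise had 0 peaks in the first 3 libraries and 1 in fasted 5, at chr7:150150080-150155305, 5226 bp wide with a score of 603.93 (percentile 66.7). Both peaks thus came from 1 library, and without fasted 5 neither window held a peak in any library. Among tiles of 190 kb along the genome with a peak in any library, 10.1% had peaks in fasted 5 only, and among tiles of 40 kb, the length of the Ascl2 window, 13.3% did. Most tiles of these lengths had no peak in a given one of the libraries empty here. Of all tiles of 190 kb, 67.5% (fed 1), 74.0% (fed 4) and 59.5% (fasted 2) had none. Of all tiles of 40 kb, 85.1% (fed 1), 89.5% (fed 4) and 79.4% (fasted 2) had none. At Lgr5 the nearest peak outside the window lay 37.4 kb (fed 1) and 39.3 kb (fed 4) or 35.6 kb (fasted 2) and 35.7 kb (fasted 5) from its edge, so each library did have a peak in the neighbourhood. At Ascl2 it lay 18.0 kb (fed 1) and 63.4 kb (fed 4) or 16.8 kb (fasted 2) and 14.1 kb (fasted 5) away. In the order of genes in RefSeq, Lgr5 lies between Zfc3h1 and Tspan8 and overlaps the gene model A930009A15Rik, and Ascl2 lies between Th and Tspan32.

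Axin2, the negative-feedback target of the pathway, had the most bases under peaks of the 6 loci. Its peaks covered 6916 bp (fed 1) and 2252 bp (fed 4) against 19969 bp (fasted 2) and 26216 bp (fasted 5), in 4, 2, 7 and 5 peaks. In each of the 4 libraries this was the largest covered length among the 6 windows, and each fasted library exceeded each fed one. Of the 15 merged regions in the 6 windows, made by joining peaks of all libraries that overlap, only 2 had a peak in all 4 libraries, and both lay here.

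The first of these spanned chr11:108765798-108773942. It was covered over 4112 bp (fed 1) and 1058 bp (fed 4) against 6076 bp (fasted 2) and 7256 bp (fasted 5), by 2 peaks in fed 1 and a single peak in each other library. Its fasted peaks stood at percentiles 85.2 and 90.1, the latter being the top peak of the window in fasted 5, and its fed 4 peak at percentile 21.3. The other region, chr11:108779935-108791659, was covered over 2804 bp (fed 1) and 1194 bp (fed 4) against 8212 bp (fasted 2) and 10934 bp (fasted 5). It held the top Axin2 peak of fed 1 (score 134.93, percentile 73.5), of fed 4 (score 86.07, percentile 62.9) and of fasted 2 (score 653.83, percentile 89.7). In fasted 5 the whole of it except its edge was a single peak of 10934 bp, the widest peak in the 6 windows, whereas fasted 2 had 4 peaks there and fed 1 had 2, so the number of peaks does not follow the acetylated length. Among all regions with a peak in each library, the fasted pair covered more than the fed pair, library by library, in 91.3%, and both Axin2 regions were of that kind.

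A pair of further Axin2 regions had peaks in the 2 fasted libraries and in no fed library. These were chr11:108791936-108794180, covered over 1672 bp in fasted 2 (percentile 9.82) and 2245 bp in fasted 5 (percentile 35.5), and chr11:108794395-108799184, covered over 4009 bp in fasted 2 (percentile 71.7) and 4699 bp in fasted 5 (percentile 70.1). They follow the second shared region on the side of higher coordinates, separated by gaps of 276 and 305 bp in fasted 5. The fed bases at Axin2 lay mostly inside the fasted peaks: 7395 of the 8284 bp covered in either fed library (89.3%) were also covered in a fasted library. The fed libraries themselves shared only 884 bp there, against 19087 bp shared by the fasted libraries.

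Within the Sox9 window a single region carried all peaks, chr11:112641422-112650430. It was covered over 1735 bp in fed 1 and 0 bp in fed 4, and over 5914 bp in fasted 2 and 8702 bp in fasted 5. Both fasted libraries lay above both fed ones. The fed 1 peak stood at percentile 40.5, and the 3 peaks of fasted 2 at percentiles 54.3 to 67.5, parted by gaps of 44 and 427 bp. In fasted 5 the region was 1 peak with a score of 3100, a value that 1282 peaks of this list share and 142 exceed, so its percentile lies between 96.0 and 99.6. Sox9 thus ranked near the top of fasted 5 and nearer the middle of fed 1 and fasted 2. Other peaks lay just outside the window. The next one above its upper edge was 2.51 kb (fed 1), 101.5 kb (fed 4), 1.99 kb (fasted 2) and 1.75 kb (fasted 5) away. With the window widened by 10 kb on each side, the mean covered length was 10064 bp in fasted and 1250 bp in fed libraries.

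Myc showed the same set of libraries. Its main region, chr15:61814831-61821493, was covered over 3476 bp (fed 1) and 0 bp (fed 4) against 5110 bp (fasted 2) and 6663 bp (fasted 5). The top peaks had a score of 148.97 in fed 1 (percentile 77.7), 811.22 in fasted 2 (percentile 93.1) and the tied score of 3100 in fasted 5 (percentile 96.0 to 99.6). In fed 1 and fasted 2 no peak of the 6 windows ranked higher within its list. All 3476 bp of fed 1 also lay under the peaks of both fasted libraries. A small peak of 1135 bp at chr15:61809305-61810439 (percentile 25.4) was found in fasted 2 only, and brought the bases covered in the Myc window of that library to 6245 bp.

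The peaks of Cd44 fell into 5 regions, none with a peak in all 4 libraries. The window had 0 peaks in fed 1 and 1 of 944 bp in fed 4, against 3 covering 6009 bp in fasted 2 and 5 covering 8971 bp in fasted 5. Both fasted libraries lay above both fed ones. Peaks shared by the fasted libraries and missing from the fed ones lay at chr2:102664845-102668182 (percentiles 34.4 and 46.4 for the 2 fasted 2 peaks, 65.2 in fasted 5) and at chr2:102739181-102742270 (50.8 in fasted 2 and 67.2 in fasted 5), the latter holding the top peak of the window in each fasted library. The fed 4 peak, chr2:102655329-102656272, had a score of 55.73 (percentile 16.7) and met a fasted 5 peak of 876 bp (percentile 18.1) with no counterpart in fed 1 or fasted 2. Fasted 5 alone had peaks at chr2:102646623-102647322 (percentile 5.65) and chr2:102706556-102708342 (percentile 46.3).

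**Figure D2:**
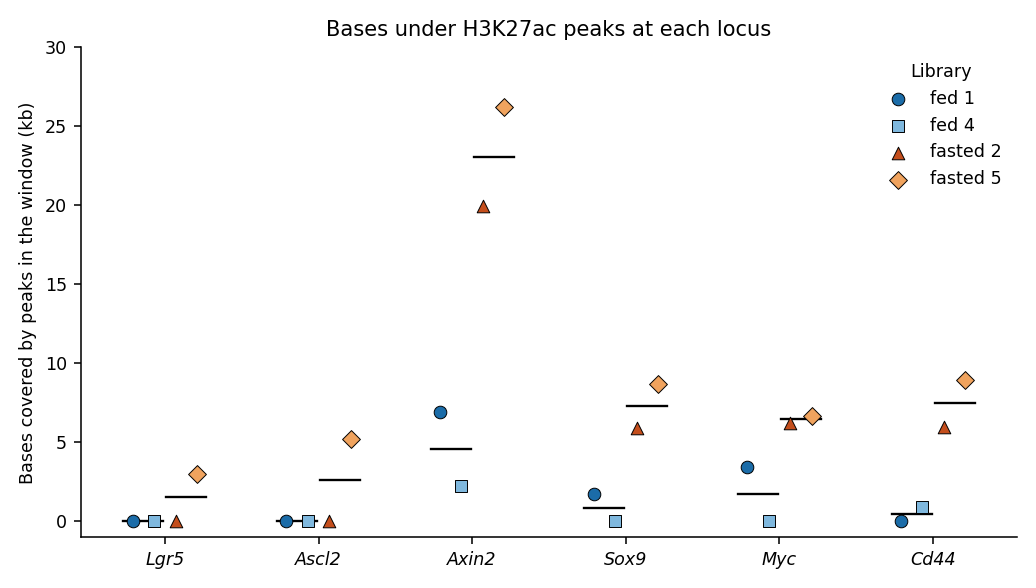
Bases under H3K27ac peaks in each window (y axis, kb) by gene (x axis), with a point for each library and a line at the mean of each feeding state (n = 2). Axin2 is highest in every library, and the feeding states do not overlap at Axin2, Sox9, Myc and Cd44.

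The bases covered were then compared between feeding states. At Axin2 fasted libraries covered 23092.5 ± 4417.3 bp and fed libraries 4584.0 ± 3297.9 bp (mean ± SD, n = 2), a ratio of 5.04. The ratio was 8.42 at Sox9 (7308.0 ± 1971.4 against 867.5 ± 1226.8 bp), 3.71 at Myc (6454.0 ± 295.6 against 1738.0 ± 2457.9 bp) and 15.9 at Cd44 (7490.0 ± 2094.5 against 472.0 ± 667.5 bp). These ratios rested heavily on the fed libraries. Without fed 4 they were 3.34 at Axin2, 4.21 at Sox9 and 1.86 at Myc, and Cd44 then had no fed base. Without fed 1 the ratio was 10.3 at Axin2 and 7.93 at Cd44, and Sox9 and Myc had no fed base. Over tiles of the same length with any fed base, the median ratio was 3.20 for the Axin2, 3.08 for the Sox9 and Myc and 3.35 for the Cd44 length. At Lgr5 and Ascl2 fed libraries covered 0 bp and the fasted mean of 1518.0 ± 2146.8 bp and 2613.0 ± 3695.3 bp came from fasted 5.

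The feeding states did not overlap in 4 of the 6 windows, with the fasted libraries higher each time. This order is common in these lists: it held for 77.3% of tiles of 40 kb with a peak in any library, 79.1% of those of 50 kb, 81.4% of those of 75 kb, 85.2% of those of 145 kb and 86.4% of those of 190 kb. The count at the 6 loci is therefore not above the background. A two-sided exact permutation test of 2 against 2 libraries cannot go below p = 0.333, the value at each of the 4 windows (p = 1 at Lgr5 and Ascl2), so no difference could pass a threshold of 0.05. The deposited file names carry a number, 10 for fed 1 and fasted 2 and 11 for fed 4 and fasted 5, whose meaning is not stated. Within number 10 the fasted library covered 13053 bp more at Axin2, 4179 bp more at Sox9, 2769 bp more at Myc and 6009 bp more at Cd44, and within number 11 it covered 23964, 8702, 6663 and 8027 bp more. At Lgr5 and Ascl2 the difference was 0 bp within number 10 and 3036 and 5226 bp within number 11.

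Set against the length of each list, the 6 windows took a larger part of the fasted lists. This share was not computed for other loci, so it has no background beside it. They held 0.0249% (fed 1) and 0.0146% (fed 4) of all bases under peaks of the library against 0.0385% (fasted 2) and 0.0539% (fasted 5). Both fasted values lay above both fed values, with means of 0.0462 ± 0.0109% and 0.0197 ± 0.00727% (SD, n = 2). The exact permutation test gave p = 0.333, the smallest value it can reach. Much of the share came from Axin2, with 6916 of 12127 bp in fed 1 and 2252 of 3196 bp in fed 4. In fasted 2 it gave 19969 of 38137 bp and in fasted 5 26216 of 58814 bp. With 15504 top-scoring peaks taken from each library the shares were 0.0209% (fed 1) and 0.0146% (fed 4) against 0.0321% (fasted 2) and 0.0665% (fasted 5). Cd44 then kept 0 bp in fed 1 and fasted 2, 944 bp in fed 4 and 5608 bp in fasted 5, so its feeding states overlapped. With top-scoring peaks of 21.9 Mb from each, they were 0.0120%, 0.0146%, 0.0233% and 0.0702%. That last setting keeps 2834 peaks of fasted 2 and 2615 of fasted 5, of which 1 and 2 lay in the windows, at Myc in both libraries and at Sox9 in fasted 5. It leaves the Axin2 window without a peak in fed 1, fasted 2 and fasted 5 and with 2252 bp in fed 4, so the higher fasted coverage at Axin2 and Cd44 is not found among the strongest fasted peaks. The number of windows whose feeding states did not overlap, 4 in the full lists, was 3 with equal peak numbers and 1, at Myc, with equal covered length. The shares over genome tiles were computed in the full lists only, so the counts of 3 and 1 have no background beside them.

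**Figure D3:**
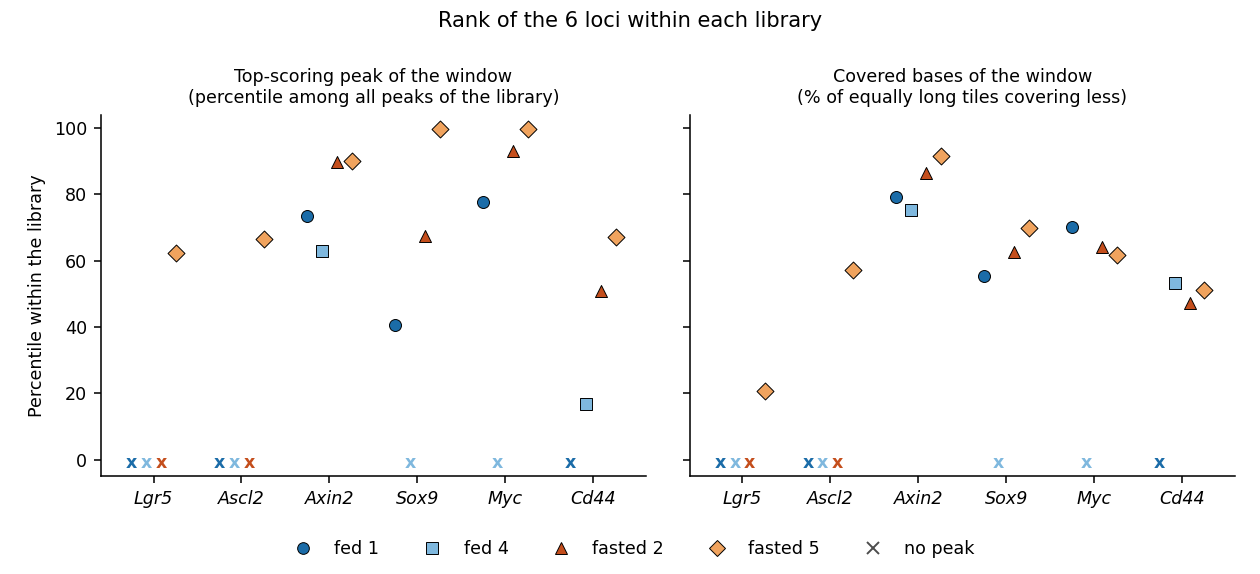
Rank of each gene (x axis) within each library, as the percentile of the window's top-scoring peak among all peaks of the library (left) and as the percentage of equally long genome tiles that cover fewer bases (right); crosses mark windows without a peak. Axin2 stands between 62.9 and 90.1 on the left and between 75.4 and 91.7 on the right in every library; shorter lists leave more tiles without a peak, so points of different libraries on the right are not on a common scale.

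The place of the loci within their own library was also compared. A percentile does not remove the difference in list length, since it depends on how many weaker peaks the list holds. The top Axin2 peak stood at percentile 73.5 (fed 1) and 62.9 (fed 4) against 89.7 (fasted 2) and 90.1 (fasted 5). Top peaks ranked higher in both fasted than in both fed libraries at Axin2, Sox9, Myc and Cd44, counting a window without a peak as lowest. The share of genome tiles with this order of top peaks was not computed, so it has no background beside it. A shorter list also leaves more windows without a peak, and those count as lowest. The order of top peaks did not hold throughout when the lists were made alike. With equal peak numbers fasted 2 had no Cd44 peak while fed 4 had 1. The mean top-peak percentile over the 6 windows was taken with 0 for a window without a peak. With equal peak numbers it was 18.8 (fed 1) and 13.3 (fed 4) against 29.7 (fasted 2) and 55.8 (fasted 5). In the full lists it was 32.0 and 13.3 against 50.2 and 80.9. With equal covered length the mean top-peak percentile over the 6 windows, with 0 for a window without a peak, was 1.76 (fed 1) and 13.3 (fed 4) against 1.33 (fasted 2) and 31.5 (fasted 5), so the feeding states overlapped.

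Each window was also ranked by its covered bases among tiles of the same length with a peak in any library. These ranks place a locus within its own library and are not compared between libraries, since a shorter list leaves more tiles at 0 bp, which lifts the rank of any peak in it. Of all tiles of 50 kb, 83.1% had no peak in fed 1 and 73.6% had none in fasted 5, and of all tiles of 145 kb, 77.7% had none in fed 4 and 59.1% had none in fasted 5. These shares include tiles without a peak in any library, which the ranks leave out. The ranks used 14298 of the 52714 tiles of 50 kb and 7513 of the 18182 tiles of 145 kb. Axin2 covered more than 79.2% (fed 1) and 75.4% (fed 4) of tiles against 86.4% (fasted 2) and 91.7% (fasted 5), the highest of the 6 windows in each library. Sox9 covered more than 55.5% of tiles in fed 1, 62.6% in fasted 2 and 69.9% in fasted 5. Myc covered more than 70.3% in fed 1, 64.1% in fasted 2 and 61.6% in fasted 5. Cd44 covered more than 53.4% in fed 4, 47.2% in fasted 2 and 51.1% in fasted 5. The Lgr5 peak of fasted 5 covered more than 20.7% and the Ascl2 peak more than 57.2% of the tiles of its length.

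Peaks were then matched between libraries by any overlap. All 7 peaks of fed 1 and all 3 of fed 4 overlapped a fasted peak, against 90.3% of all fed 1 and 91.8% of all fed 4 peaks, which is close to the background for so few peaks. In the other direction 5 of the 15 peaks of fasted 2 and 5 of the 14 of fasted 5 overlapped a fed peak, where 51.8% and 48.9% of all peaks in those lists did. Of the 15 merged regions, 4 had peaks in the 2 fasted libraries only (19.3% of the 43091 regions of the series), 0 had the reverse (0.297%) and 2 were found in every library (16.1%). Another 6 came from a single library (41.5%), 5 of them in fasted 5 (19.1%), namely 1 at Lgr5, 1 at Ascl2, 1 at Axin2 and 2 at Cd44, and 1 in fasted 2 at Myc. The regions are few and lie in 6 loci, so these counts are descriptions.

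**Figure D4:**
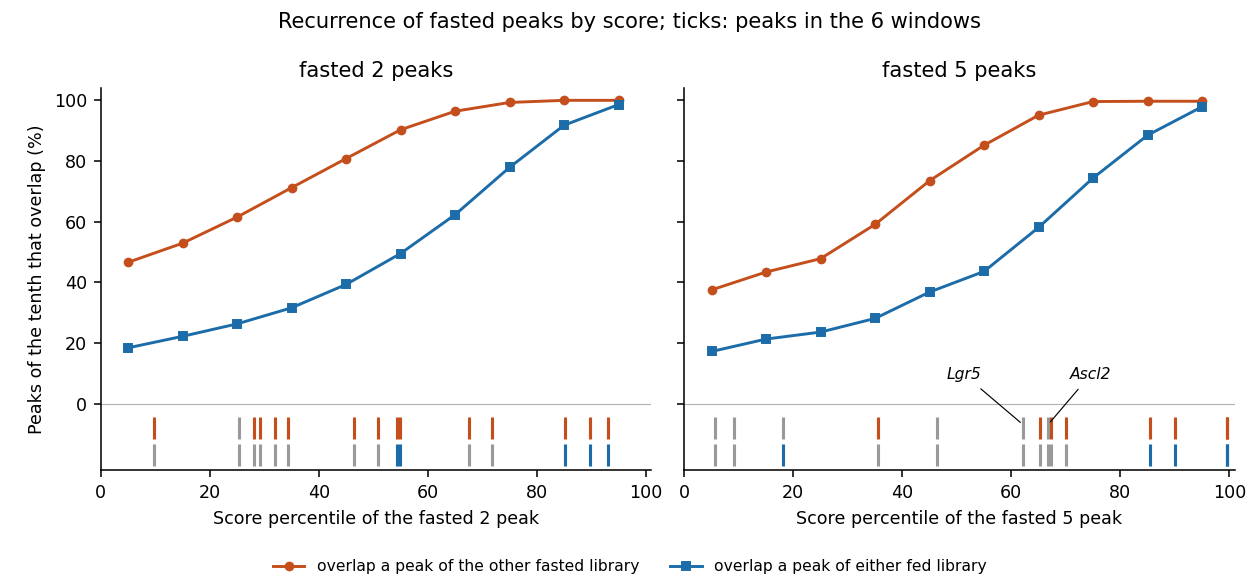
Share of all peaks in each 10-point range of the score percentile (x axis) of fasted 2 (left) and fasted 5 (right) that overlap a peak of the other fasted library or of either fed library (y axis, %). Ticks below 0 mark the peaks in the 6 windows, coloured in the upper row where they overlap the other fasted library and in the lower row where they overlap a fed library, and grey where they do not; the Lgr5 and Ascl2 peaks are grey in both rows.

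The share of fasted peaks that recur in another library rose with score percentile, from 37.5% of fasted 5 peaks up to percentile 10 to 99.7% above percentile 90, counted against fasted 2. Of the 3591 fasted 5 peaks between percentiles 60 and 70, 95.1% overlapped a fasted 2 peak, 58.1% overlapped a fed peak and 4.18% overlapped no peak of the other 3 libraries. The 4 peaks of the windows in this range were those of Lgr5 and Ascl2, which overlapped none, and a pair at Cd44, which overlapped a fasted 2 peak but no fed peak. This range was picked after the percentiles of these 2 peaks were seen. The window peaks of fasted 5 above percentile 80, at Axin2, Sox9 and Myc, all overlapped peaks of both fasted 2 and fed 1. This is close to the background. Of all fasted 5 peaks, 88.5% between percentiles 80 and 90 and 97.9% above 90 overlapped a peak of either fed library. In each of these ranges 99.7% overlapped a fasted 2 peak. Peaks found in fasted 5 alone at Axin2 and Cd44 ranked lower, at percentiles 9.09 (Axin2) and 5.65 and 46.3 (Cd44). Up to percentile 10, 57.4% of all fasted 5 peaks overlapped no other library, and between percentiles 40 and 50 this was 22.4%.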

How the data were processed

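H3K27ac ChIP-seq peak lists of 2 fed and 2 fasted libraries were used, one list per library, grouped by the sample titles. The tools listed in the submitters' processing notes are Bowtie 1.1.2, deepTools 1.5.11, SAMtools 1.9 and FastQC, and the build is mm9. Deposited file and peak names mention MACS and the absence of a model; its version and settings, and the aligner's settings, are not stated in the sources used here. The deposited peak score is the authors' own value on an unstated scale and was used only to rank or filter within a list. The authors' start and end of each peak were used as deposited, as mm9 positions, printed counting from 1.

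Bases covered count only those inside a window. Tiles of each window's length ran from the start of each chromosome to its last peak. Values per library were compared by two-sided exact permutation tests (SciPy 1.17.1, Python 3.11.15); functions were checked on simulated peak lists. Intervals that need depth are not given, as no read counts were at hand. All 6 genes are named, with the top peak of each library and window and the most covered region of each window. Regions with a peak in both libraries of one feeding state and in neither of the other are also given. Genes were not assigned by annotation, since the gene and promoter tables at hand are for another build; promoters came from RefSeq (GRCm38.p6). For the same reason other Wnt pathway genes were examined by promoter letters only. The genes, windows and gene list were chosen with earlier results of these data known. Marker genes of cell types could not be applied to peak lists. Alternatives were score minimums of 100 and 200, equal peak number, equal covered length, wider or narrower windows, whole peaks, other ranks and tiles, and leaving out each library. The replicates were separate pools of animals.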

Additional observations from a re-analysis of the deposited data

How the results depend on the processing

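Of 195 values recomputed under other settings, 3 reversed and 21 moved by more than the set limits or to 0. The other 171 did not, though where a difference was judged by its direction its size could change. Some of the 171 were bound to stay. Counting whole peaks left every value as it was, and leaving out a fed library could not change Lgr5 or Ascl2, where both held 0 bp. A score minimum of 200 left 640 peaks in fed 4 and 20009 in fasted 5, which favours the fasted lists. Over the 6 windows the difference in bases fell from 40814 to 7320.5 bp, and in mean top-peak percentile from 42.9 to 8.91, with equal covered length, and at Cd44 from 7018 to 2332 bp with equal peak numbers, where the feeding states overlapped. All reversals came with an equal covered length of top-scoring peaks, which removes most fasted peaks: the fasted minus fed difference was -0.500 peaks over the 6 windows (9.50 as reported), -1126 bp at Axin2 and -472 bp at Cd44. Under the same setting the difference was 0 bp at Lgr5 and Ascl2, 1 window kept all fasted above all fed libraries, and 5 merged regions were left, of which 0 had a peak in every library and 0 had one in both fasted and no fed library. Regions in both fasted and no fed library numbered 2 when peaks up to 1000 bp apart were joined and 2 with equal peak numbers. Ranked among all tiles, with or without a peak, mean percentiles were 32.0 for Lgr5, 96.5 for Axin2, 90.9 for Sox9, 89.9 for Myc and 79.0 for Cd44 in fasted and 92.7 for Axin2 in fed libraries.

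With 1 library left out, the differences ranged from 0 to 3036 bp at Lgr5 and from 0 to 5226 bp at Ascl2, with 0 bp when fasted 5 was left out, and were 0 bp within file number 10. Regions with a peak in every library ranged from 2 to 4 (4 without fed 4), and regions in every remaining fasted and no fed library from 4 to 10 (9 without fasted 2, 10 without fasted 5). No paired analysis was possible because the fed libraries (1 and 4) and the fasted libraries (2 and 5) share no replicate number in the labels; differences within each file number were computed without a block, since what that number marks is not stated. Unknown depth, 2 libraries per feeding state and the score minimum limit all comparisons.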
